A study of Mus musculus with 8 samples.

Results

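The mitochondrial ribosomal protein RNAs were followed through oocyte maturation and after expression of wild-type or mutant BTG4. The genes were chosen by name, as symbols beginning with Mrpl or Mrps followed by a digit and listed in all 8 libraries. This gave 76 of 15962 genes, after 3 symbols marked as pseudogenes (-ps) were left out, and all 76 passed the filter on low values. By the current protein nomenclature 50 of them encode proteins of the large subunit, 25 encode proteins of the small subunit, and Mrps36 encodes KGD4, a subunit of the alpha-ketoglutarate dehydrogenase complex. Mrps30 and Mrps18a carry small-subunit names but encode large-subunit proteins (mL65 and mL66), and were counted there.

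Mitochondria translate the few messages of their own genome on a dedicated ribosome, whose RNAs are mitochondrial and whose proteins are all encoded in the nucleus, made in the cytosol and imported. Many of these proteins descend from bacterial ribosomal proteins, and others were added during the evolution of mitochondria. The oocyte does not transcribe during meiotic maturation, and relies on stored messages from the germinal vesicle (GV) to the metaphase II (MII) stage. BTG4 is an adaptor that brings the CCR4-NOT deadenylase to maternal mRNAs.

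The samples were oocytes of 6-week-old superovulated ICR mice, pooled as 15 oocytes per library. The labels speak of 3 samples for each group, and 2 libraries in each of 4 groups were analysed here. GV and MII were uninjected control oocytes (labelled WT) cultured in vitro. Btg4wt and Btg4tm were MII oocytes injected with cRNA for Myc-tagged BTG4. The protein was either wild type or had residues T145, S146 and S147 changed to alanine. The injected oocytes still had their own Btg4. According to the paper, either injected form appeared to lower the oocyte's own BTG4 protein. Amplified cDNA was primed with oligo(dT), so shorter poly(A) tails and fewer molecules of an RNA cannot be told apart. Values are TPM (each library's length-corrected read shares on a fixed total), scaled between libraries by the median of ratios. Fold changes are on the log2(scaled TPM + 1) scale, which understates the change of low RNAs. A call required a Benjamini-Hochberg adjusted p under 0.05 over all 13968 genes tested (limma) and a log2 fold change beyond 1 in either direction.

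Within groups, replicate libraries correlated at 0.982 to 0.987. All 14 oocyte markers were present in every group, with summed levels of 25357 to 32270 scaled TPM. Of 18 cumulus and granulosa cell markers 8 were listed, none at 0, and their sum was 38.1 to 51.4 scaled TPM. The highest was Cyp19a1, the aromatase of granulosa cells, with means of 16.5 scaled TPM in GV, 26.1 in MII, 22.0 in Btg4wt and 18.6 in Btg4tm, and its part in the results was not tested. Fshr, Foxl2 and Amh, which also define granulosa cells, were not among the listed genes. Btg4 itself was at 2650 and 2794 scaled TPM in GV, 5792 and 6002 in MII, 5178 and 5510 in Btg4wt, and 3725 and 4068 in Btg4tm. These values do not separate injected from endogenous Btg4, so they do not check the injection labels. RNA of mitochondrially encoded genes took 0.625% and 0.651% of listed TPM in GV, 2.6% and 2.71% in MII, 1.75% and 2.05% in Btg4wt, and 0.765% and 1.02% in Btg4tm.

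The promoters of 4 members are shown because the first 3 belong to paralogs that fell strongly in MII, whereas the fourth belongs to Mrpl21, whose RNA had the highest log2 fold change of the group. Each window runs from 250 bases before to 50 bases after the annotated start (RefSeq, GRCm38.p6). Capitals mark the letters CCGGAAG on either strand, the core bound by ETS factors such as GABPA, and in Mrps18a also AAGATGGCG, the core bound by YY1.
Mrps18a (GRCm38.p6, chr17:46110754-46111053, plus strand): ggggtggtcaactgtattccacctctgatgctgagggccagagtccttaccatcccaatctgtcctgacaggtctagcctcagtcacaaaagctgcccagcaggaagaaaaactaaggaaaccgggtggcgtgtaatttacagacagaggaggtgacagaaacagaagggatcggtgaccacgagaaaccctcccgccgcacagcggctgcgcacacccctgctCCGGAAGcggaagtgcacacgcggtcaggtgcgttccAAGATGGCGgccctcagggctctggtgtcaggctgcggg
Mrps18b (GRCm38.p6, chr17:35916391-35916690, minus strand): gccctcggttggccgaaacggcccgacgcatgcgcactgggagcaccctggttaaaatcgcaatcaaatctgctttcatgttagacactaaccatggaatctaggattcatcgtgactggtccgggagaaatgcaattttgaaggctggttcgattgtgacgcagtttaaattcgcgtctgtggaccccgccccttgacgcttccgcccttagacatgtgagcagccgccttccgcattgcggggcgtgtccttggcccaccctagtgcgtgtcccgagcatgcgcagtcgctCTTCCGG
Mrps18c (GRCm38.p6, chr5:100798509-100798808, plus strand): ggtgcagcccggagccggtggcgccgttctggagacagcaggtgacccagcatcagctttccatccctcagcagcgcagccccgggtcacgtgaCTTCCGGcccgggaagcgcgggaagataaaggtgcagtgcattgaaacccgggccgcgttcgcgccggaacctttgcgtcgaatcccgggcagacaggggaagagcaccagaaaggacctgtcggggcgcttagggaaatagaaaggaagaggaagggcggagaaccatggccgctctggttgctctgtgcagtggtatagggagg
Mrpl21 (GRCm38.p6, chr19:3282792-3283091, plus strand): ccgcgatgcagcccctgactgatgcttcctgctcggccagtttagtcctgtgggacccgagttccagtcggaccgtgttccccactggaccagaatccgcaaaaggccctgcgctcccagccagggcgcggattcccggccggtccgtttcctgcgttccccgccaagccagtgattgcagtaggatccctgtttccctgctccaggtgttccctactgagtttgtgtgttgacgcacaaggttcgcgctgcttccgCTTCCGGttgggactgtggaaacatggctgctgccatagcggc

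All 4 of these windows held the ETS letters. Promoters were matched for 68 members, taking the first listed start of each gene. The ETS letters occurred on either strand in 35.3% of these members, against 18.9% of coding genes tested and 9.12% of all promoters in the table. They were in 18 of the 48 matched members that fell in MII and in 6 of the 20 that were not called. The YY1 letters were in 11.8% of members, 3.32% of coding genes tested and 1.49% of all promoters, and for the palindromic NRF1 core these shares were 4.41%, 2.1% and 0.977%. The ETS and YY1 cores can share the letters AAG, but the form joined at those letters was found in 0 of the 27025 promoters. A match describes letters only.

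Windows near the 3′ ends of 4 members are shown because they hold the letters TTTTAT or TTTTAAT of the cytoplasmic polyadenylation element (CPE). Through this element maturing oocytes extend the tails of selected messages. The first pair fell in MII and the second pair was not called. Each line is 30 bases of the sense strand around the element, which begins 23, 34, 92 and 85 bases from the transcript end in the order shown (GENCODE M21 transcripts, GRCm38), with the element itself in capitals.
Mrpl14: gcagaataaatgTTTTAATgtatgttttct
Mrps18b: tcctggctcagcTTTTATacaataaagctg
Mrps14: tcccaggtTTTTATgttctatgcatctact
Mrpl44: cagctagatgtaTTTTATtccctccagctt

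Within the last 100 bases, the element was present in 7 of the 55 members that fell in MII and in 4 of the 21 that were not called. Among all coding genes tested it was present in 19.4%. Here too a match describes letters only, and in Mrpl14 they follow AATAAA. Whether the element acts in these RNAs was not tested.

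Most mitochondrial ribosomal protein RNAs fell during maturation. In MII compared with GV, 55 of the 76 members were called lower and 0 were called higher, whereas 24.0% of all genes tested were called lower and 12.5% higher. At an adjusted p under 0.05 with no minimum fold (limma), 64 members were lower and 7 higher in MII, against 32.8% and 29.8% of all genes. The numbers at an unadjusted p under 0.05 (limma) were also 64 and 7. The share of all genes at an unadjusted p is not given here for any comparison. The median log2 fold change of the members was -1.83 (quartiles -3.14 and -0.87), and that of all genes was close to 0, with quartiles of -0.97 and 0.68. Both MII libraries lay below both GV libraries for 64 members and above them for 9, and the groups overlapped for 3 members. Over all genes, 41.6% lay below and 41.1% above. The standard errors of the members' log2 fold changes ranged from 0.09 to 0.54, with a median of 0.17.

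Summed over the 76 members, Mrps36 included, the level was 8433 and 8143 scaled TPM in GV, and it was 2917 and 2994 in MII. Btg4wt held 3006 and 2934, close to MII, whereas Btg4tm held 6608 and 7601. The large-subunit RNAs alone summed to 5215 and 5146 in GV, 1740 and 1763 in MII, 1825 and 1793 in Btg4wt, and 4212 and 4825 in Btg4tm. The median member stood at 25.9% of its GV level in MII, 25.4% in Btg4wt and 80.2% in Btg4tm. In MII 18 members were under 10% of their GV level and 56 were under 50%, whereas in Btg4tm both counts were 0. At or above 100% were 12 members in MII and 18 in Btg4tm. The shares of all genes at these levels are not given here. These percentages are relative to the other RNAs of each library, so amounts per oocyte cannot be read from them. They also depend on the scaling. When libraries were scaled to the mitochondrially encoded RNAs, 30 members and 21.3% of all genes were called lower in Btg4tm over GV.

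**Figure D1:**
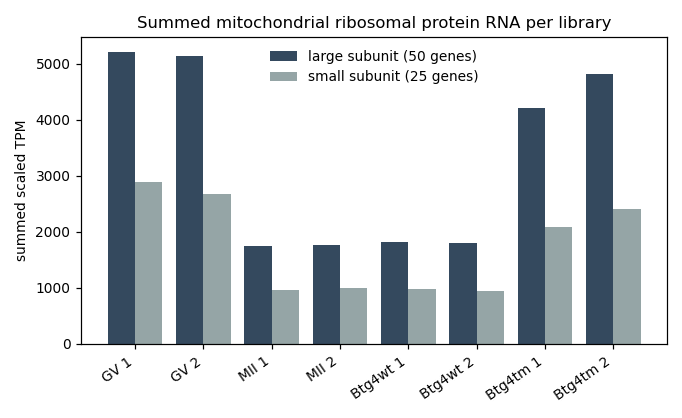
Summed scaled TPM (vertical axis) of the 50 large-subunit and 25 small-subunit RNAs in each of the 8 libraries, 1 bar per library and subunit. The large-subunit bars of MII and Btg4wt lie between 1740 and 1825, below those of Btg4tm (4212 and 4825) and GV (5215 and 5146).

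The fall was unequal across members, so their order changed. Mrps33, a small-subunit protein found in mitochondria only, was the most abundant in GV (569 and 493 scaled TPM) and fell to 154 and 164 in MII. Mrpl18, whose bacterial relative binds 5S rRNA, was the most abundant in MII, at 471 and 480.2 scaled TPM against 327 and 339.8 in GV. The 10 highest members held 41.5% and 41% of the members' sum in GV and 55.9% and 56.1% in MII. In both MII libraries Mrps36, which encodes no ribosomal protein, was the second highest of them. The SD of the members' log2 levels was 1.66 and 1.62 in GV, 1.92 and 1.85 in MII, 1.91 and 1.93 in Btg4wt, and 1.62 and 1.61 in Btg4tm. The wider spread was thus seen in both groups whose levels were low.

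**Figure D2:**
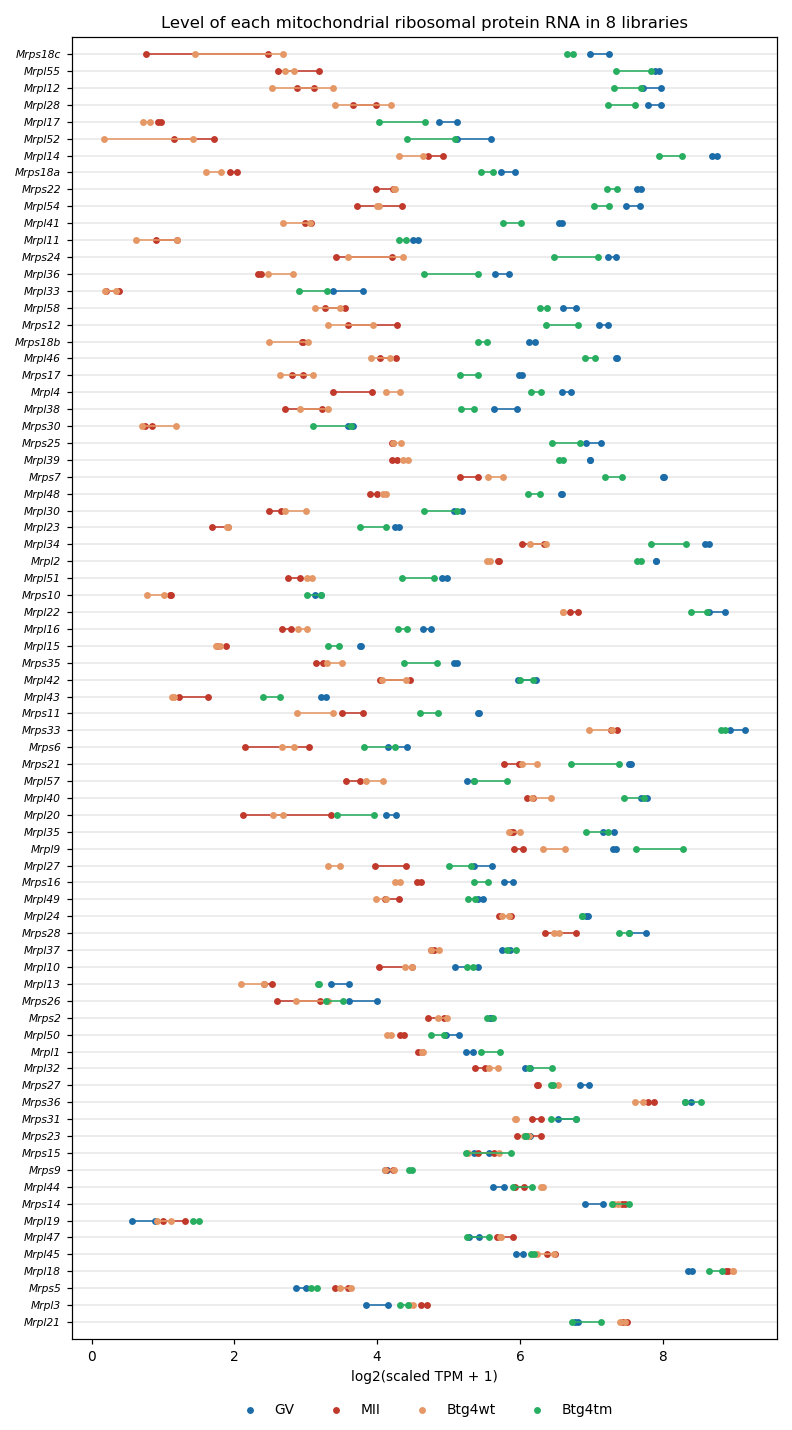
Level of each of the 76 RNAs, as log2(scaled TPM + 1) on the horizontal axis, with genes ordered by their MII over GV fold change. Points are libraries, and a line joins the 2 libraries of a group. Toward the top GV and Btg4tm lie together on the right and MII and Btg4wt on the left. Toward the bottom the groups lie closer together, and in the last rows, such as Mrpl21, MII lies right of GV.

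Oocytes given mutant BTG4 were compared with those given the wild type, to ask which of these RNAs differed in level. Btg4 RNA also differed, at 3725 and 4068 scaled TPM in Btg4tm against 5178 and 5510 in Btg4wt. The change of the 3 residues and the level of Btg4 therefore cannot be told apart. In Btg4tm over Btg4wt, 52 members were called higher and 0 lower, whereas 18.1% of all genes tested were called higher and 7.94% lower. At an adjusted p under 0.05 and any fold (limma), 62 members were higher and 1 was lower, against 26.2% and 23.3% of all genes. At an unadjusted p under 0.05 the members numbered 62 and 3, without a share of all genes to set them against. The members' median log2 fold change was 1.61 (quartiles 0.83 and 2.42), against 0.01 over all genes. Both Btg4tm libraries lay above both Btg4wt libraries for 64 members and below them for 7, against 37.6% and 36.7% of all genes, and 5 members overlapped.

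All 52 members that rose in Btg4tm were among the 55 that fell in MII, which is 94.5% of those that fell. Over all genes, 70% of those that fell in MII rose in Btg4tm, and 92.5% of those that rose had fallen. The pair of comparisons has no library in common. The 3 members that fell in MII without a call in Btg4tm were Mrps21, Mrps28 and Mrpl13, with log2 fold changes over Btg4wt of 0.92, 0.94 and 0.92, just under the limit of 1. Across the 76 members the log2 fold changes of the comparisons correlated at a Pearson r of -0.973 and a Spearman rho of -0.977, and over all genes the rho was -0.812. These points are genes measured in the same libraries and are not independent replicates.

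**Figure D3:**
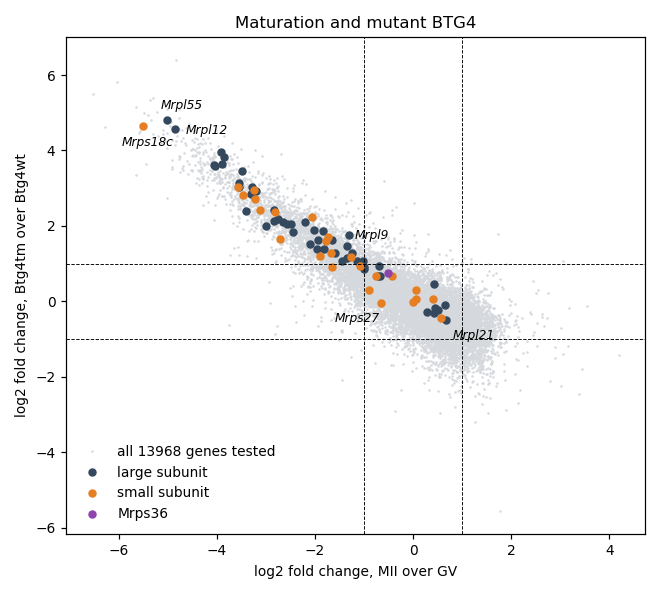
Log2 fold change in MII over GV (horizontal) against Btg4tm over Btg4wt (vertical), with 1 point per gene, all 13968 genes tested in grey and the members coloured by subunit. Dashed lines mark a log2 fold change of 1 in either direction. Members run from Mrps18c, Mrpl55 and Mrpl12 at the upper left to Mrpl21 at the lower right.

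The large subunit joins amino acids into protein and the small subunit reads the message. Of the 50 large-subunit RNAs, 39 fell in MII and 38 rose in Btg4tm, with median log2 fold changes of -1.99 and 1.80. Of the 20 without bacterial homologs 17 fell, and of the 30 with bacterial homologs 22 fell. The medians of these sets were -2.37 and -1.95.

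Mrpl55 (bL31m; chromosome 11, 59202486 to 59206134) showed the largest fall of the large subunit. Its level was 246 and 236 scaled TPM in GV, 5.12 and 8.11 in MII, 5.53 and 6.13 in Btg4wt, and 161 and 228 in Btg4tm. The MII and Btg4wt libraries lay together far below the other 4. The log2 fold change was -5.02 ± 0.22 (SE, adjusted p = 9.5e-07, limma) in MII and 4.82 ± 0.22 (adjusted p = 2.1e-06) in Btg4tm over Btg4wt.

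Mrpl12 and Mrpl10 encode the proteins of the stalk, on which translation factors dock, and MRPL12 also binds the mitochondrial RNA polymerase. Mrpl12 was at 209.5 and 251 scaled TPM in GV, 7.65 and 6.36 in MII, 9.41 and 4.76 in Btg4wt, and 159 and 207 in Btg4tm. It fell by 4.85 on the log2 scale in MII (SE 0.27, adjusted p = 2.8e-06, limma) and rose by 4.56 in Btg4tm over Btg4wt (adjusted p = 6.2e-06). Mrpl10, its partner in the stalk, was at 33.2 and 41.7 in GV, 15.3 and 21.5 in MII, 20.0 and 21.5 in Btg4wt, and 37.4 and 39.4 in Btg4tm. Its groups did not overlap, but its log2 fold changes of -1.0 and 0.86 did not pass the limit of 1. The first was at that limit, and Mrpl10 was called lower in MII with TPM as deposited and with a pseudocount of 0.1. Mrpl12 was thus above Mrpl10 in both GV libraries and below it in both MII libraries. Both genes overlap other exons, over 13.1% (Mrpl12) and 14.1% (Mrpl10) of their own exonic bases, and counting took no account of strand.

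Mrpl28 (bL28m) and Mrpl17 (bL17m) came next among the falls. Mrpl28 was at 220.5 and 250.5 scaled TPM in GV, 11.7 and 14.8 in MII, 17.3 and 9.58 in Btg4wt, and 149 and 194 in Btg4tm, with log2 fold changes of -4.06 in MII and 3.62 in Btg4tm over Btg4wt. Mrpl17 was at 33.7 and 28.1 in GV, 0.969 and 0.909 in MII, 0.765 and 0.650 in Btg4wt, and 15.3 and 24.5 in Btg4tm, with log2 fold changes of -4.04 and 3.58. Mrpl52 (mL52) was among the 5 largest rises in Btg4tm, at 20.3 and 33.1 against 0.125 and 1.67 in Btg4wt (3.96 ± 0.42 SE). Without Btg4wt replicate 1 that value was 3.34, and without replicate 2 it was 4.58. Mrpl58 (mL62), which releases peptides from stalled ribosomes, fell by 3.29 on the log2 scale from 109.8 and 96.3 in GV to 8.66 and 10.7 in MII. Mrps30 (mL65), a large-subunit protein despite its name, was at 11.6 and 11.1 in GV, 0.789 and 0.683 in MII, 1.27 and 0.630 in Btg4wt, and 11.4 and 7.54 in Btg4tm. Mrpl22 (uL22m), which lines the exit tunnel, was among the 4 most abundant members and fell by 2.01 on the log2 scale, from 468 and 402 in GV to 111 and 103 in MII.

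The small subunit gave 16 RNAs that fell in MII and 14 that rose in Btg4tm, of 25, with median log2 fold changes of -1.68 and 1.2. The difference between subunits was not tested. Mrps12 (uS12m), at the decoding centre, was at 149.9 and 137 scaled TPM in GV, 11 and 18.4 in MII, 14.4 and 8.91 in Btg4wt, and 81.5 and 111 in Btg4tm. Its log2 fold changes were -3.24 in MII and 2.96 in Btg4tm over Btg4wt.

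The mouse has 3 paralogs of the bacterial protein S18, and their products occupy different places in the mitochondrial ribosome. Mrps18c (bS18m; chromosome 5, 100798627 to 100804471) encodes the small-subunit protein most like the bacterial one, and its promoter is the third shown above. Its level was 151 and 126 scaled TPM in GV, 0.699 and 4.53 in MII, 5.41 and 1.72 in Btg4wt, and 100.2 and 106 in Btg4tm. This was the largest fall of all members, at -5.51 ± 0.54 (SE, adjusted p = 4.8e-05, limma), with a rise of 4.64 ± 0.54 in Btg4tm over Btg4wt (adjusted p = 0.0002). The MII libraries differed, and the fall was -4.66 without MII replicate 1 and -6.36 without replicate 2. The rise was 5.26 without Btg4wt replicate 1 and 4.02 without replicate 2.

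Mrps18a (mL66; chromosome 17, 46110986 to 46128910), whose product sits in the large subunit, was at 60.3 and 52.3 in GV, 3.10 and 2.85 in MII, 2.03 and 2.51 in Btg4wt, and 43.0 and 48.4 in Btg4tm. Its log2 fold changes were -3.85 and 3.84. Mrps18b (mS40; chromosome 17, 35910379 to 35916389) was at 73.1 and 68.9 in GV, 6.69 and 6.77 in MII, 7.17 and 4.61 in Btg4wt, and 41.8 and 45.7 in Btg4tm, with log2 fold changes of -3.22 and 2.72. All 3 paralogs therefore fell and rose with the same call. Exons of other genes overlapped 30.5% of Mrps18b and 23.2% of Mrps18c, and none of Mrps18a.

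**Figure D4:**
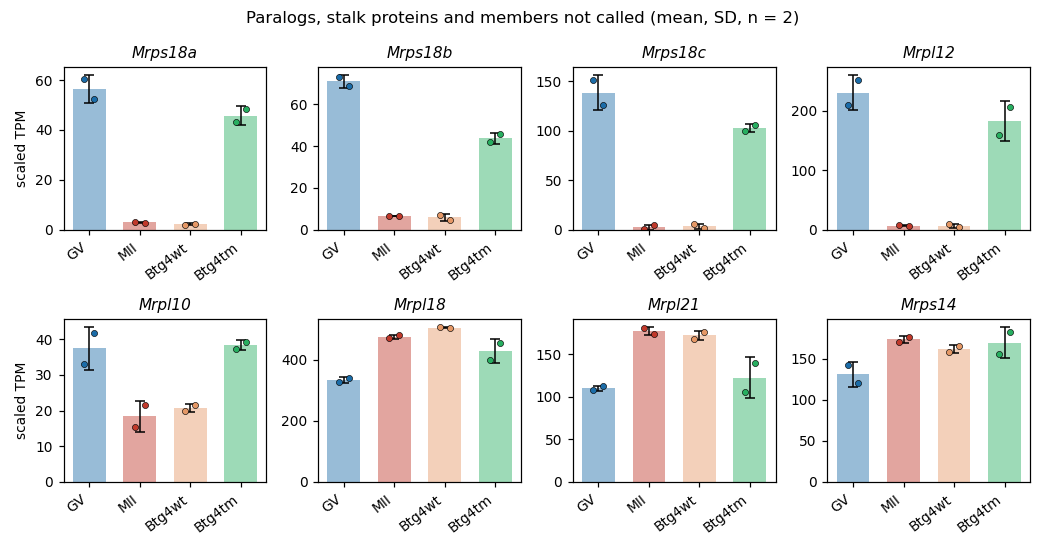
Scaled TPM (vertical axis, from 0) of 8 members in each group; bars are means, error bars are SD with n = 2 and points are libraries. Mrps18a, Mrps18b, Mrps18c and Mrpl12 are low in MII and Btg4wt, and Mrpl18, Mrpl21 and Mrps14 have MII values above their GV values.

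The 21 members called in none of the comparisons were Mrpl1, Mrpl3, Mrpl10, Mrpl18, Mrpl19, Mrpl21, Mrpl32, Mrpl44, Mrpl45, Mrpl47, Mrpl50, Mrps2, Mrps5, Mrps9, Mrps14, Mrps15, Mrps23, Mrps26, Mrps27, Mrps31 and Mrps36. They were not all flat. Mrpl21 (bL21m; chromosome 19, 3282901 to 3292837) was at 108 and 112 scaled TPM in GV, 180.4 and 174 in MII, 168 and 176 in Btg4wt, and 105 and 139.6 in Btg4tm. Its log2 fold change in MII was 0.68 ± 0.14 (SE, adjusted p = 0.0025, limma), short of the limit of 1, and over Btg4wt that of Btg4tm was -0.50 (adjusted p = 0.015).

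Mrpl3 (uL3m), at the core of the large subunit, was at 13.3 and 16.8 scaled TPM in GV and 24.9 and 23.6 in MII, a log2 fold change of 0.66. Mrps5 (uS5m) was at 6.26 and 7.04 in GV and 11 and 9.60 in MII, a log2 fold change of 0.56. For Mrpl45 (mL45), which anchors the ribosome to the inner membrane near the exit tunnel, the values were 60.6 and 64.9 in GV and 89.2 and 82.2 in MII, a log2 fold change of 0.44. In each of these both MII libraries were above both GV libraries. Scaling to the mitochondrially encoded RNAs moved the median of all genes to -1.74 and gave negative values to all 11 members above 0 in MII over GV, of which 6 stayed above that median.

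Mrps14 (uS14m), with a CPE at its 3′ end, was at 142 and 120.0 scaled TPM in GV, 171 and 177 in MII, 158 and 165 in Btg4wt, and 156 and 183 in Btg4tm. Mrps23 was at 68.8 and 69.3 in GV, 77.5 and 61.0 in MII, 68.9 and 65.8 in Btg4wt, and 66.7 and 66.4 in Btg4tm. Mrps27 was at 124 and 114 in GV and at 74.2 and 75.6 in MII, 91.7 and 87.0 in Btg4wt, and 85.3 and 87.0 in Btg4tm, with a log2 fold change of -0.05 in Btg4tm over Btg4wt. Mrps36, the dehydrogenase subunit that only shares the name, was at 336 and 316 in GV, 220.1 and 235 in MII, 210.3 and 194 in Btg4wt, and 316 and 369 in Btg4tm. Its log2 fold changes of -0.52 and 0.75 had the direction of the called members but missed the limit. Mrpl19 had the lowest mean of all members, from 0.484 to 1.83 scaled TPM over the 8 libraries. The next lowest, Mrpl43 and Mrps10, had called falls in MII of -1.82 and -2.06, and with length and GC trends removed Mrpl43 was at -0.82 and no longer called.

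Wild-type BTG4 was then compared with uninjected MII oocytes. In Btg4wt over MII, 0 members and 0% of all genes were called by limma. At an unadjusted p under 0.05 there were 3 members lower and 5 higher, without a share of all genes beside them. The members' median log2 fold change was -0.03, within a range from -0.79 (Mrpl27) to 0.57 (Mrpl4), and the groups overlapped for 42 members. Both Btg4wt libraries were above both MII libraries for 18 members and below them for 16, against 24.1% and 20.8% of all genes. Control and injection libraries were listed with different numbers of genes (17384 and 16448), so injection and any difference in handling between those sets cannot be told apart. This comparison uses the MII and Btg4wt libraries already described.

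Btg4tm was also set beside GV, with the same limit. These groups differ in meiotic stage, in injection and in the set of listed genes, so those influences cannot be told apart. In Btg4tm over GV 0 members were called by limma. Over all genes 1.02% were called lower and 1.02% higher, so the members were near the share of all genes. At an unadjusted p under 0.05 (limma), 22 members were lower and 7 higher. The share of all genes at that threshold is not given here, so no direction is read from these numbers. At an adjusted p under 0.05 with no minimum fold, 6 were lower (Mrpl14, Mrpl39, Mrpl41, Mrps7, Mrps17 and Mrps27) and 1 was higher (Mrpl18), against 3.73% and 7.66% of all genes. Both Btg4tm libraries were below both GV libraries for 49 members and above them for 10, against 34.2% and 25.3% of all genes. The members' median log2 fold change was -0.31 (quartiles -0.46 and near 0), against -0.08 over all genes, and it was -0.18 without Btg4tm replicate 1. Mrpl14 (uL14m), at 431 and 411 scaled TPM in GV, was at 246 and 307 in Btg4tm, against 18.7 and 24.0 in Btg4wt. Conversely 18 members had a mean in Btg4tm at or above that in GV. Among them Mrpl9 was at 162 and 157 in GV and 309.9 and 197 in Btg4tm, with libraries that differed from each other, and Mrpl57 was at 37.4 and 40.0 against 39.8 and 55.5.

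Other genes of the pathway were read from lists. Of 5 mitochondrial ribosome proteins with other names, 4 fell in MII (80%, against 24.0% of all genes). These were Dap3 (-1.07), Chchd1 (-3.21), Aurkaip1 (-3.65) and Gadd45gip1 (-2.68), and 3 of them rose in Btg4tm, whereas Dap3 was at 0.89. Ptcd3, a small-subunit protein of the pentatricopeptide repeat family, was not called, at 0.30 in MII. Of 14 mitochondrial translation factors 6 fell in MII (42.9%), against 24.0% of all genes. In Btg4tm 3 of them rose (21.4%), near the 18.1% of all genes. The elongation factor Tufm fell (-1.49) and so did the recycling factor Mrrf (-1.83), whereas Gfm1, which moves the ribosome along the message, had a log2 fold change of 0.88 and was not called.

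Of 23 genes for ribosome assembly and rRNA modification, 11 fell (47.8%) and 1 was called higher (4.35%) in MII. Over all genes these shares were 24.0% and 12.5%. In Btg4tm 10 rose (43.5%) and 2 were lower (8.7%), against 18.1% and 7.94% of all genes, the latter near that share. The helicase Ddx28 fell by 3.45 on the log2 scale. Malsu1, which keeps the immature large subunit from joining the small one, fell too (-3.49). Mettl17 was the gene called higher in MII (1.0), and Tfb1m, a methyltransferase of the small rRNA, was lower in Btg4tm (-1.36), as was Dhx30 (-1.0). Of 11 genes for mitochondrial transcription and RNA care, 2 fell in MII, namely the RNA polymerase Polrmt (-3.62) and Slirp (-2.44), and 2 were called higher, namely Tfb2m (1.16) and Mterf1b (1.01). Each is 18.2% of the list, against 24.0% of all genes lower and 12.5% higher, and the median log2 fold change of the list was 0.04.

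The cytosolic ribosomal protein RNAs and the nuclear-encoded respiratory chain RNAs are the most similar sets in kind. Both sets were chosen by symbol. The respiratory chain set also took in ATP synthase genes (Atp5) and any assembly factors with Nduf symbols. Of 83 cytosolic ribosomal protein RNAs tested 70 fell in MII, with a median log2 fold change of -2.98, and 64 rose in Btg4tm (2.40). Of 89 respiratory chain RNAs 66 fell (-2.37) and 66 rose (1.94). The members' medians of -1.83 and 1.61 were smaller in size than these. The differences between sets were not tested.

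**Figure D5:**
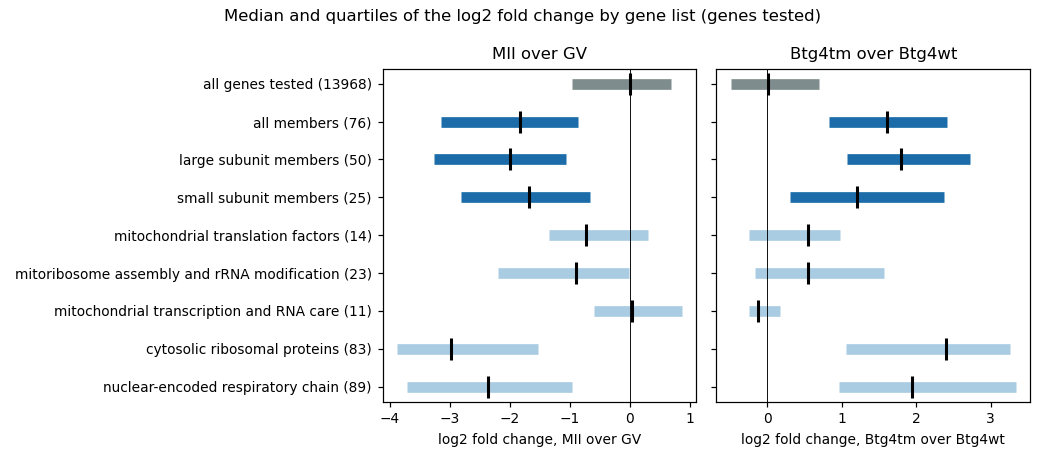
Median (black mark) and quartiles (bar) of the log2 fold change for each gene list, with the number of genes tested in brackets; the left panel shows MII over GV and the right panel Btg4tm over Btg4wt. The members lie left of all genes in the first panel (medians -1.83 and near 0) and right of them in the second (1.61 and 0.01), with the cytosolic ribosomal proteins further out (-2.98 and 2.40).

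The members have short transcripts, with a median of 1324 bases in the annotation used, against 2866 for coding genes tested. The log2 fold change in MII rose with transcript length at a Spearman rho of 0.33 over members and 0.40 over coding genes. Of the 38 members with shorter transcripts 34 fell in MII, and of the 38 with longer transcripts 21 fell. Other coding genes between 933 and 2664 bases, the quartiles of the members, had a median log2 fold change of -0.49 in MII, and 36.1% were called lower. In Btg4tm over Btg4wt their median was 0.35, and 28.3% were called higher. The members themselves run from 418 to 7300 bases, so that range leaves out the shortest and longest of them. It is therefore not a matched comparison with all 76. With trends on length and GC content removed from each library, 43 members were called lower and 5 higher in MII, with a median of -1.11. Over all genes 17% were then lower and 17.3% higher, with a median of 0.14. The 5 members were Mrpl18, Mrpl21, Mrpl44, Mrps15 and Mrps23. In Btg4tm over Btg4wt 41 were then higher and 3 lower (Mrpl18, Mrpl21 and Mrpl44), with a median of 1.05, against 12.8% higher and 10.9% lower of all genes and a median of -0.12. Whether length itself contributed was not tested.

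Reads of repeated sequence can be lost in counting, since reads under a mapping quality of 10 were dropped. Reads over overlapping exons can be lost as well, since the stated counting options name no assignment of a read to more than 1 gene. Of the members, 31 shared more than 10% of their exonic bases or of their 50-base words with other genes. Among the other 45 members, 32 fell in MII and 31 rose in Btg4tm, with median log2 fold changes of -1.90 and 1.48.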

How the data were processed

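RNA of 8 libraries of 15 oocytes each, 2 per group, was reverse transcribed with oligo(dT) and amplified (Smart-seq2). According to the methods and the processing notes, the authors trimmed reads with Trim Galore 0.6.10, aligned them to GRCm38 with HISAT2 2.2.0 and GENCODE vM25, and counted exonic reads without strand by featureCounts 2.0.6 (mapping quality of at least 10, primary alignments). The authors deposited TPM per gene symbol, and the gene lengths behind them are not given in the sources used here. TPM keep no depth, so precision rests on 2 libraries per group, and whether replicates came from separate animals is not stated, so p-values measure the spread between these libraries.

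From the deposited TPM, the 15962 genes in all 8 libraries were scaled by the median of ratios. Genes reaching 1 TPM in 2 or more libraries (13968) were tested on log2(scaled TPM + 1) with limma 3.58.1 in R 4.3.3 (eBayes with trend, all 8 libraries). TPM are no counts, so no count model was fitted. The script was tested on simulated data. Transcript features came from GENCODE M21 (GRCm38), an earlier annotation than the authors used, and promoters from RefSeq.

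The members and lists were chosen with earlier results of these data known. Named members were the 5 largest changes in each direction among called members of a comparison, the 4 highest and 3 lowest by mean, members of named roles (Mrpl12, Mrpl10, Mrps12, Mrpl45, Mrpl58, Mrps36, Mrps30 and the S18 paralogs), and all members called in no comparison. Other members named beside a count, and genes of the lists, were picked after their values were seen. Alternatives were other scalings, filters, pseudocounts, call rules and sets of samples, a replicate block, removal of length and GC trends, and leaving out each library. Same-numbered libraries correlated between -0.0539 and 0.0555 in their deviations, so no effect shared by equal numbers was seen. Whether equal numbers mark samples of the same animals or day cannot be told from this. Mrpl53 and Mrps34 were not analysed here.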

Additional observations from a re-analysis of the deposited data

How the results depend on the processing

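The counts of 55 members lower in MII and 52 higher in Btg4tm stayed within 1.5 times under each of the alternatives run. The members behind them changed. With length and GC trends removed, 14 of the 55 calls were lost and 7 gained, 5 of them higher. Of the 52 calls, 12 were lost and 4 gained, 3 of them lower. Scaling to the mitochondrially encoded RNAs called 75 and 69 members, with 81.6% and 43.6% of all genes called the same way. With each library left out in turn, the members' median ranged from -1.95 to -1.83 in MII over GV. It ranged from 1.5 to 1.71 in Btg4tm over Btg4wt. In Btg4wt over MII it was from -0.06 to 0.05, and in Btg4tm over GV from -0.39 to -0.18. The lone library of a group was there assumed to vary like the others. In Btg4tm over GV these fits called from 0 to 1 members lower, with 1 when Btg4tm replicate 2 was left out. Leaving out single libraries ended the MII calls of Mrpl13, Mrpl37, Mrps28 and Mrpl20 and the Btg4tm calls of Mrpl20 and Mrps35.

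Scaling to the mitochondrially encoded RNAs, whose share differed between groups, moved the median of all genes to -1.74 in MII over GV and to 0.88 in Btg4tm over Btg4wt. The members' medians were then -3.85 and 2.57, with 0.42 in Btg4wt over MII and -0.94 in Btg4tm over GV, where 30 members and 21.3% of all genes were called lower. Relative to all genes the members were still lower in MII and higher in Btg4tm. In MII over GV it turned all 11 members above 0, among them Mrpl18 (-1.70), Mrpl21 (-1.52), Mrpl3 (-1.44), Mrpl44 (-1.89), Mrpl45 (-1.74), Mrpl47 (-1.74), Mrps14 (-1.79), Mrps15 (-2.11), Mrps5 (-1.41) and Mrps9 (-2.04). In Btg4tm over Btg4wt it turned all 9 members below 0, among them Mrpl21 (0.58), Mrps23 (1.05) and Mrps27 (1.02), and in Btg4tm over GV 16 of the 18 above 0, among them Mrpl18 (-0.27).

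With TPM as deposited the median was -1.97 for MII over GV and -0.47 for Btg4tm over GV, and quantile normalization gave -1.62 in MII over GV and 1.38 in Btg4tm over Btg4wt. With length and GC trends removed the medians were -1.11, 1.05 and -0.16 in MII over GV, Btg4tm over Btg4wt and Btg4tm over GV, 5 members were called higher in MII and 3 lower in Btg4tm. Mrps23 (1.02), Mrps27 (0.12), Mrps31 (0.08) and Mrps36 (0.14) then turned in MII over GV, and so did Mrpl13, Mrpl37 and Mrps28, which had been called lower, and Mrpl43 lost its calls (-0.82 and 0.59). With no minimum fold, 7 members were called higher in MII, 1 lower in Btg4tm over Btg4wt, and 6 lower and 1 higher in Btg4tm over GV. Mrpl10 and Mrps26 gained a call in MII with TPM as deposited, and Mrpl10 also with a pseudocount of 0.1. Quantile normalization ended the MII calls of Mrpl13, Mrpl24, Mrpl37, Mrpl49 and Mrps28. The cause of these moves was not tested. The replicate block left the counts at 55 and 52. Depth cannot be read from TPM, which limits what can be said of the lowest members.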
